A study of Homo sapiens with 12 samples.

Results

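The upstream miRNA group of the imprinted region on chromosome 14q32 comprised 10 mature miRNAs here, out of 1733 miRNAs listed in at least 1 of 12 small RNA libraries. They were hsa-mir-493-5p, hsa-mir-493-3p, hsa-mir-337-5p, hsa-mir-337-3p, hsa-mir-431-5p, hsa-mir-433-3p, hsa-mir-127-3p, hsa-mir-432-5p, hsa-mir-136-3p and hsa-mir-370-3p. The members were chosen by name, as products of 8 hairpins of this region, with their levels in both cell lines already known. The difference in level between the lines is therefore given as a description, without a test. Of the same upstream hairpins and their neighbours miR-665 and miR-770, 8 further mature miRNAs were listed. The larger cluster that follows on the chromosome, from miR-379 to miR-656, had 72 listed miRNAs.

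The libraries came from 2 established human PDAC cell lines. PANC-1 was derived from a primary pancreatic tumor, and AsPC-1 from the ascites of a patient with PDAC. For either line, 3 control libraries were compared with 3 libraries of cells in which MYEOV had been depleted with siRNA, to ask which miRNAs depend on MYEOV. MYEOV is a gene first found overexpressed in multiple myeloma. The sample labels describe the control cells as wild type without treatment, whereas the study's protocol describes a negative-control siRNA, and the stated harvest times differ as well (48 h in the labels). The siRNA knockdown is transient, and the counts of small RNAs hold no measure of the MYEOV transcript. The number in the title of a knockdown library could also denote the siRNA used. Both groups of a line share the cell line and its culture, and p-values measure the spread between these libraries.

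The 14q32 region holds one of the largest miRNA clusters of placental mammals. It is imprinted: the noncoding RNAs MEG3 and MEG8 and the miRNAs are made from the maternal chromosome, whereas the protein-coding genes DLK1, RTL1 and DIO3 are made from the paternal one. Several of the upstream hairpins lie on the strand opposite to RTL1, a gene derived from a retrotransposon that is needed in the placenta, and in the mouse their miRNAs have been shown to cleave its transcript, which they match perfectly. Silencing of the whole region, or loss of imprinting, has been described in many tumors.

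On GRCh37, the build the authors mapped to, the members' hairpins lay on the plus strand of chromosome 14 within 42.2 kb, from the start of MIR493 (101335397) to the end of MIR370 (101377550). MEG3 (101245747 to 101327368) ended before the first of them. The 5 hairpins MIR431, MIR433, MIR127, MIR432 and MIR136 were packed into 3.78 kb (101347344 to 101351125) and lay inside a coding exon of RTL1, which runs on the minus strand from 101346090 to 101370059. MIR493, MIR337 and MIR370 lay outside RTL1. All 8 hairpins were in an intron of the lncRNA MIR493HG, and MIR370 was also in an intron of MEG8. Another 111 kb separated MIR370 from MIR379, the first hairpin of the downstream cluster.

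The mature sequences are shown so that the members can be told apart by their seeds, the bases 2 to 8 that find a target, which stand in capitals. They are RefSeq's for the GRCh38.p14 build, in which all 10 members were matched by name, and each was also found exactly in its hairpin on GRCh37. The members are given in the order of their hairpins on the chromosome.
hsa-mir-493-5p: uUGUACAUgguaggcuuucauu
hsa-mir-493-3p: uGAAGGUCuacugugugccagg
hsa-mir-337-5p: gAACGGCUucauacaggaguu
hsa-mir-337-3p: cUCCUAUAugaugccuuucuuc
hsa-mir-431-5p: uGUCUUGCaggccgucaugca
hsa-mir-433-3p: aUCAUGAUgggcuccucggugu
hsa-mir-127-3p: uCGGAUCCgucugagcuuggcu
hsa-mir-432-5p: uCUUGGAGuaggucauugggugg
hsa-mir-136-3p: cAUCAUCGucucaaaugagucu
hsa-mir-370-3p: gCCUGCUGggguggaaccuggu

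The 10 sequences were 21 to 23 nt long and 5 of them began with U. They carried 10 distinct seeds, and none of these seeds occurred in another mature miRNA among the 2545 of the RefSeq table, so the group shared a position and not a seed. The files count, for each miRNA, the reads that begin where its most abundant sequence near the annotated start begins, so the counted form can start at another base than the sequence printed here.

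For the miRNAs opposite to RTL1, the matching stretch of the RTL1 sense strand is the full complement of the miRNA. It is shown for the members that fell after knockdown, miR-431-5p and miR-433-3p, and for miR-127-3p, the most abundant member of this kind. The bases opposite to the seed stand in capitals, and the positions are those of GRCh37, minus strand.
RTL1 opposite hsa-mir-431-5p, chr14:101347363-101347383: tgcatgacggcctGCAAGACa
RTL1 opposite hsa-mir-433-3p, chr14:101348286-101348307: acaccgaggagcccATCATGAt
RTL1 opposite hsa-mir-127-3p, chr14:101349372-101349393: agccaagctcagacGGATCCGa

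The AsPC-1 libraries held 5587106 to 7311783 counted reads and the PANC-1 libraries 3805084 to 5049361. A count of 3, used here as the floor, equals 0.410 to 0.537 CPM and 0.594 to 0.788 CPM, where CPM is the count scaled to the library's depth (with TMM factors for the levels). The AsPC-1 library of control replicate 1 stood apart from the other controls of its line, with a chi-square per degree of freedom of 224 and 183 over all miRNAs, against 8.13 to 59.7 in the other pairs of replicates. No 2 libraries of a group were duplicates by this measure. The 5 miR-200 family members used as epithelial markers summed to 49550 to 50669 CPM in AsPC-1 and to 231 to 256 CPM in PANC-1, so PANC-1 held few of them. The markers of muscle, of which 2 of 3 were listed, summed to 0.699 to 1.56 CPM in AsPC-1 and 118 to 192 CPM in PANC-1, those of pancreatic acinar and islet cells (3 of 3 listed) to 0.837 to 2.24 CPM and 6.05 to 11.9 CPM, and those of blood (6 of 6 listed) to 9.48 to 16.8 CPM and 0.781 to 2.86 CPM. The liver marker miR-122-5p was at 4.29 to 11.0 CPM and 2.20 to 5.73 CPM, and the neuron marker miR-124-3p did not exceed 0.148 CPM and 0.776 CPM. The 10 listed miRNAs of other imprinted genes summed to 467 to 550 CPM in AsPC-1 and to at most 360 CPM in PANC-1. The epithelial and blood markers and the other imprinted miRNAs were higher in AsPC-1, and the muscle and pancreatic markers higher in PANC-1, each without overlap between the lines. Their part in the difference described next was not tested.

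The 10 miRNAs were abundant in PANC-1 and close to absent in AsPC-1. In the 3 PANC-1 control libraries, their summed level was 17219, 20061 and 19489 CPM (18923 ± 1503, SD, n = 3). The PANC-1 knockdown libraries summed to 17628, 19359 and 19198 CPM (18728 ± 957, SD, n = 3). On this TMM scale the ranges of control and knockdown overlapped. As an unscaled share of all counted reads, the group took 1.86%, 2.11% and 1.98% in the PANC-1 controls. After knockdown it took 1.72%, 1.85% and 1.77%, each below every control. Whether the sums overlapped thus depended on the scaling, and a change in the sum was not tested. The AsPC-1 libraries held 16, 26 and 20 reads of the whole group in the controls and 27, 21 and 20 reads after knockdown, or 2.95 ± 0.670 CPM and 3.93 ± 0.631 CPM (SD, n = 3 each).

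Relative to the total counts, the control reads of the group were 6730-fold higher in PANC-1 than in AsPC-1 (exact 95% interval 5250 to 8779, counting error only). For the single members with reads in the AsPC-1 controls, the fold ran from 3518 (1616 to 9587) for miR-136-3p to 9909 (4246 to 30519) for miR-493-3p, and these intervals overlapped. MiR-493-5p was 6349-fold higher (4301 to 9811), miR-370-3p 8263-fold (4925 to 15115), miR-127-3p 4720-fold (2566 to 9844) and miR-433-3p 4266-fold (1180 to 35237). MiR-431-5p, miR-432-5p, miR-337-3p and miR-337-5p had 0 reads in the 3 AsPC-1 controls. Against 3 counts per library, miR-337-5p was at least 149-fold higher in PANC-1, and each of the other 3 at least 514-fold higher. In the knockdown libraries the fold of the group was 4551 (3590 to 5861). Among the members with 2 or more reads in the AsPC-1 knockdown libraries, it ran from 1234 (482 to 4532) for miR-433-3p, with 4 such reads, to 8140 (2253 to 67224) for miR-136-3p, with 2. The order of the members by this fold thus differed between control and knockdown libraries, and with so few AsPC-1 reads it cannot be told.

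Most of the few reads in AsPC-1 belonged to members that also led in PANC-1. MiR-493-5p had 3, 14 and 8 reads in the AsPC-1 controls and 12, 7 and 10 after knockdown. MiR-370-3p had 3, 7 and 4 reads in the controls and 6, 4 and 6 after knockdown. MiR-127-3p had 2, 2 and 6 reads, then 5, 1 and 2. These were the members with a sum of 54, 30 and 18 reads over the 6 AsPC-1 libraries. MiR-493-3p summed to 12 reads, miR-136-3p to 8 and miR-433-3p to 6, whereas miR-337-3p and miR-432-5p had 1 read each and miR-431-5p and miR-337-5p none. Over the 10 members, the order of the read sums in both lines had a Spearman's rho of 0.933, a description across miRNAs that are not independent and share the libraries of a line.

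**Figure D1:**
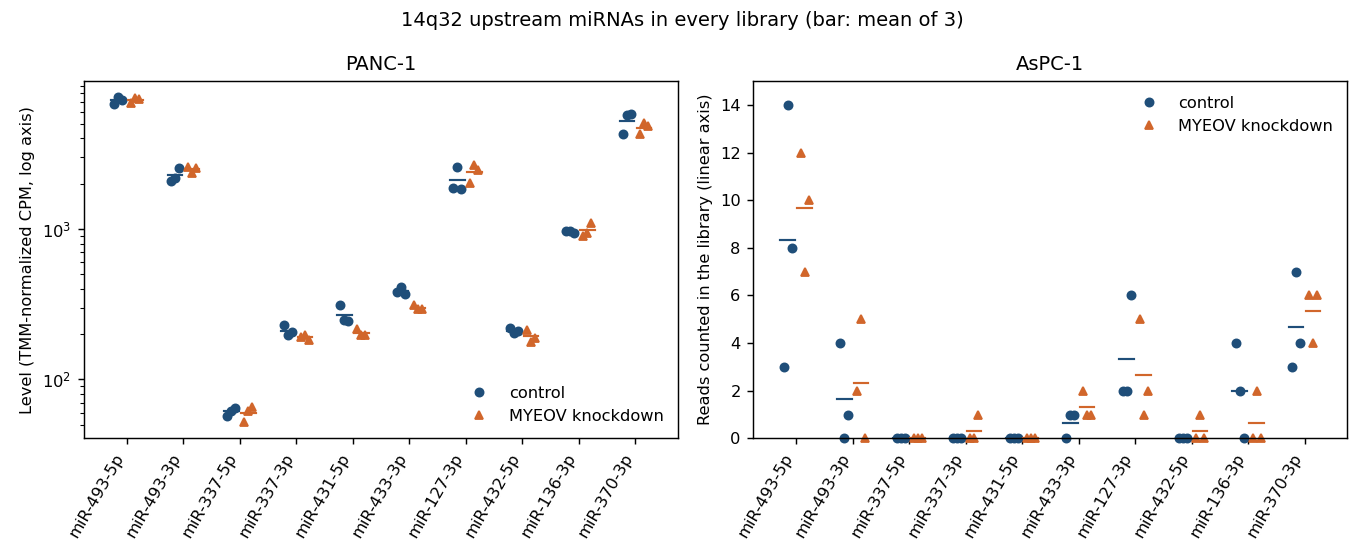
Level of each member in every library. Left, PANC-1, in TMM-normalized CPM on a log axis; right, AsPC-1, in reads counted, on a linear axis. Circles are control and triangles MYEOV knockdown libraries, a bar is the mean of 3, and members are in genomic order. In the PANC-1 controls the members ran from miR-337-5p, at 57.4 to 64.7 CPM, to miR-493-5p, at 6821 to 7519 CPM, whereas no AsPC-1 library held more than 14 reads of any member.

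Within PANC-1, few members made up most of the group. MiR-493-5p led at 6821, 7519 and 7247 CPM in the controls (7196 ± 352, SD, n = 3), which placed it 25th by mean among 1374 listed miRNAs and gave it 38.0% of the group's sum. MiR-370-3p, from the hairpin farthest downstream, followed at 4283, 5699 and 5790 CPM (5257 ± 846), rank 29 and 27.8% of the sum. MiR-493-3p had 2075, 2174 and 2564 CPM (2271 ± 258) and miR-127-3p had 1880, 2583 and 1852 CPM (2105 ± 414). The control ranges of these 2 overlapped, and their order cannot be told from the libraries. MiR-127-3p is the member best known in cancer, where it was among the first miRNAs seen to be silenced by DNA methylation and to target BCL6, a transcriptional repressor.

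The other members were lower. MiR-136-3p stood at 969, 966 and 938 CPM (958 ± 17.2), apart from the members above and below it. MiR-433-3p followed at 378.26, 408.96 and 369.44 CPM and miR-431-5p at 311, 247 and 246 CPM, and their control ranges did not overlap. MiR-432-5p (218, 204 and 211 CPM) and miR-337-3p (228, 198 and 206 CPM) had overlapping ranges, and both means round to 211 CPM. MiR-337-5p was last at 57.4, 61.2 and 64.7 CPM, rank 248 and 0.323% of the sum. The hairpins inside RTL1 thus gave members between 211 and 2105 CPM in the controls, and those outside gave both the highest and the lowest.

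The 8 other mature miRNAs of these upstream hairpins were mostly lower than their partners in PANC-1. Their control means ran from 321 CPM for miR-127-5p and 166 CPM for miR-136-5p to 1.05 CPM for miR-432-3p. MiR-665 had 48.7 CPM, miR-431-3p 45.1 CPM, miR-370-5p 38.8 CPM, miR-433-5p 3.43 CPM and miR-770-5p 1.36 CPM. The downstream cluster summed to 66023 ± 3804 CPM in the PANC-1 controls and to 45.9 ± 4.02 CPM in the AsPC-1 controls (SD, n = 3 each), so it was also high in PANC-1 and low in AsPC-1.

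After MYEOV knockdown in PANC-1, 2 of the 10 members fell and none rose. All 10 were among the 551 miRNAs tested in this line. The test was edgeR's quasi-likelihood F test, and a Benjamini-Hochberg adjusted p under 0.05, over all 551, was the threshold. Over all miRNAs tested, 9.26% fell and 22.0% changed in either direction (70 rose and 51 fell). An unadjusted p under 0.05 was reached by the same number of members, 2, and by 197 of the 551 miRNAs. The members' median log2 fold change (LFC) was -0.08, beside 0.03 over all miRNAs tested.

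The miRNA with the lowest LFC of the group was miR-431-5p. It was at 311, 247 and 246 CPM in the PANC-1 controls and at 217, 198 and 197 CPM after knockdown. All knockdown libraries were below all controls, and control replicate 1 was the highest of the 6. The means were 268 ± 37.1 and 204 ± 11.4 CPM (SD, n = 3 each), and the LFC was -0.39 (SE 0.10, 95% interval -0.58 to -0.20, edgeR adjusted p = 0.00370). Without PANC-1 knockdown replicate 3, this call was lost (LFC -0.37, edgeR adjusted p = 0.0573).

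MiR-433-3p, from the hairpin 762 bp beyond that of miR-431, fell by a like amount. It was at 378.26, 408.96 and 369.44 CPM in the controls (385.6 ± 20.7, SD, n = 3) and at 310.53, 294.88 and 293.12 CPM after knockdown (299.5 ± 9.59). The groups did not overlap, and the knockdown libraries lay close together. The LFC was -0.37 (SE 0.09, 95% interval -0.53 to -0.20, edgeR adjusted p = 0.00252), and the call held whichever library was left out (LFC -0.41 to -0.32). The other arms of both hairpins had an LFC below 0 and missed the threshold. MiR-431-3p was at 45.5, 43.8 and 46.1 CPM in the controls and at 34.4, 40.8 and 39.5 CPM after knockdown, again without overlap (LFC -0.24, SE 0.13, edgeR adjusted p = 0.173). MiR-433-5p, at a mean of 3.43 CPM, was too low for a precise value (LFC -0.36, SE 0.36, edgeR adjusted p = 0.496).

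The other 3 members inside RTL1 did not pass the test. MiR-127-3p, whose hairpin starts 972 bp beyond that of miR-433, was at 1880, 2583 and 1852 CPM in the controls and at 2017, 2679 and 2478 CPM after knockdown. Its groups overlapped, with control replicate 2 above 2 of the knockdown libraries, and its LFC was 0.18 (SE 0.11, 95% interval -0.02 to 0.39, edgeR adjusted p = 0.212). Without that control library, miR-127-3p rose past the threshold (LFC 0.36, edgeR adjusted p = 0.0112). MiR-432-5p was at 218, 204 and 211 CPM and then at 214, 177 and 187 CPM (LFC -0.13, SE 0.09, edgeR adjusted p = 0.332). MiR-136-3p was at 969, 966 and 938 CPM and then at 901, 937 and 1100 CPM, with an LFC of 0.03 (SE 0.09, edgeR adjusted p = 0.815). Of the 5 members inside RTL1, 2 fell, beside 9.26% of all miRNAs tested, and their median LFC was -0.13.

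None of the 5 members outside RTL1 passed the test, and their median LFC was -0.03. Whether the members inside and outside RTL1 differed was not tested. MiR-493-5p was at 6845, 7392 and 7318 CPM after knockdown, within the spread of its controls, and its LFC was -0.00 (95% interval -0.17 to 0.16). With total-count scaling its LFC was -0.15 (edgeR adjusted p = 0.173). MiR-493-3p, from the same hairpin, was at 2588, 2359 and 2544 CPM after knockdown, and its groups overlapped (LFC 0.14, SE 0.09, edgeR adjusted p = 0.265). MiR-337-3p was at 190, 197 and 183 CPM after knockdown, just below its lowest control at 198 CPM, and its LFC was -0.15 (SE 0.09, edgeR adjusted p = 0.241). MiR-337-5p was at 51.8, 61.6 and 65.2 CPM, with an LFC of -0.03 (SE 0.12, edgeR adjusted p = 0.866).

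MiR-370-3p was at 4283, 5699 and 5790 CPM in the controls and at 4293, 5063 and 4831 CPM after knockdown. The lowest control was below every knockdown library and the other 2 controls above all of them, and the LFC was -0.15 (SE 0.10, 95% interval -0.34 to 0.04, edgeR adjusted p = 0.265). Without PANC-1 control replicate 1, miR-370-3p fell past the threshold (LFC -0.29, edgeR adjusted p = 0.00453). With libraries scaled by total count alone, the median LFC of all miRNAs moved from 0.03 to -0.12 and that of the members from -0.08 to -0.23, and miR-337-3p (LFC -0.29, edgeR adjusted p = 0.0356) and miR-370-3p (LFC -0.29, edgeR adjusted p = 0.0316) then also fell. That scaling changed the split over all miRNAs to 26 that rose and 117 that fell, and upper-quartile scaling, under which the same 2 members fell, gave 65 and 29. In all, the knockdown libraries of 3 members did not overlap with the controls, where 36.7% of all miRNAs tested had groups without overlap.

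**Figure D2:**
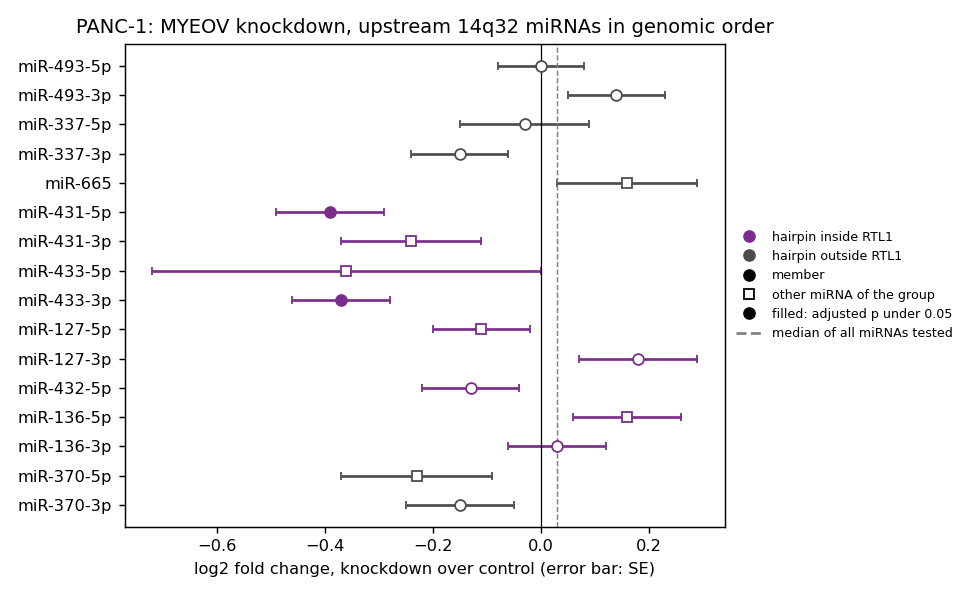
LFC of MYEOV knockdown over control in PANC-1 for the 16 upstream miRNAs tested, in genomic order, with SE as error bars (edgeR, n = 3 libraries per group). Circles are members, squares are other miRNAs of the same hairpins and miR-665, and filled symbols passed an adjusted p of 0.05. The 2 filled symbols are miR-431-5p and miR-433-3p, at -0.39 and -0.37, and the dashed line is the median of all miRNAs tested, 0.03.

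The 6 tested miRNAs of the upstream hairpins that are not members did not pass the test in this fit either. Besides the other arms of miR-431 and miR-433, they were miR-370-5p (LFC -0.23, SE 0.14), miR-127-5p (LFC -0.11, SE 0.09), miR-136-5p (LFC 0.16, SE 0.10) and miR-665 (LFC 0.16, SE 0.13), with edgeR adjusted p values of 0.249, 0.439, 0.241 and 0.371. MiR-431-3p fell past the threshold with total-count scaling (LFC -0.38, edgeR adjusted p = 0.0302), and miR-370-5p did so without PANC-1 control replicate 1 (LFC -0.36), as miR-370-3p did. MiR-432-3p and miR-770-5p were too low to be tested.

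Set against miR-493-5p of the same library, the reads of a member need no scaling of libraries. This ratio was chosen after the values were seen, with a reference that had an LFC of -0.00 under TMM scaling. It restates the same reads in another form and is given without a test. The reads of miR-431-5p came to 4.56%, 3.29% and 3.39% of those of miR-493-5p in the PANC-1 controls and to 3.18%, 2.68% and 2.69% in the knockdown libraries (3.74 ± 0.704 and 2.85 ± 0.282, SD, n = 3 each). For miR-433-3p the controls gave 5.55%, 5.44% and 5.10% and the knockdown libraries 4.54%, 3.99% and 4.01% (5.36 ± 0.234 and 4.18 ± 0.312). All knockdown libraries were below all controls for both, and for the other 7 members the groups overlapped. On the CPM scale, 36.7% of all miRNAs tested had groups without overlap. The share on this ratio was not computed.

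**Figure D3:**
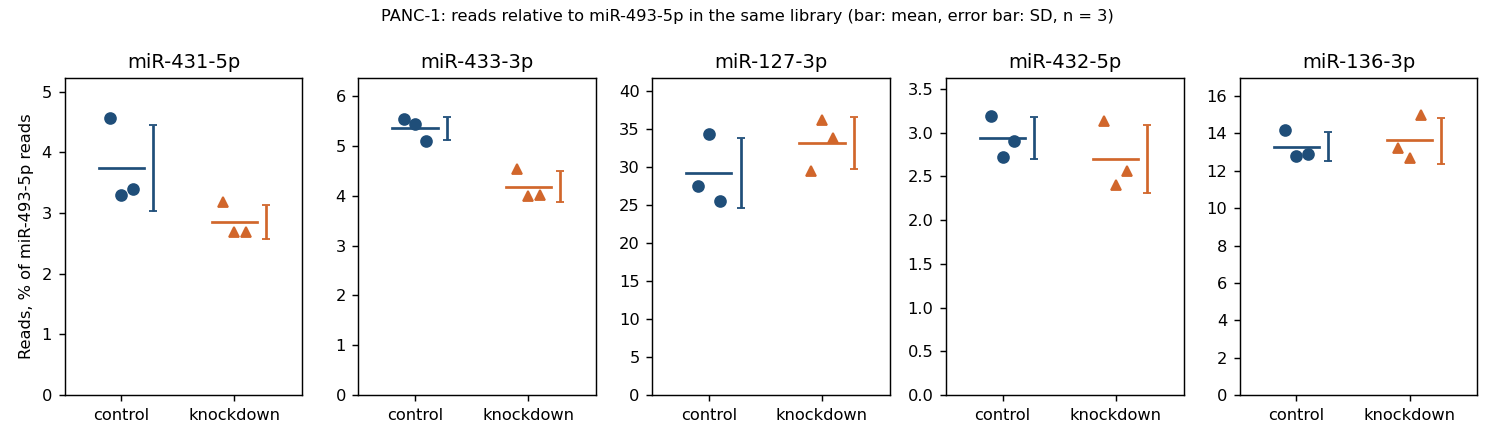
Reads of the 5 members inside RTL1 in percent of the reads of miR-493-5p in the same PANC-1 library, on linear axes from 0 that differ between panels. Points are libraries, the horizontal bar is the mean and the error bar the SD (n = 3). For miR-431-5p and miR-433-3p every knockdown library lies below every control, and for miR-127-3p, miR-432-5p and miR-136-3p the groups overlap. On the CPM scale, 36.7% of all miRNAs tested had groups without overlap.

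The members also did not vary as a block between replicates. The coefficient of variation of the PANC-1 controls ran from 1.79% for miR-136-3p to 16.1% for miR-370-3p and 19.7% for miR-127-3p. PANC-1 control replicate 1 was the lowest control for miR-493-5p, miR-493-3p, miR-337-5p and miR-370-3p, and the highest for miR-431-5p, miR-337-3p, miR-432-5p and miR-136-3p. Over the 45 pairs of members, the correlation of deviations from the group means over the 6 PANC-1 libraries had a median of -0.0872. It ran from -0.987 for miR-431-5p with miR-370-3p to 0.906 for miR-493-5p with miR-370-3p. These are descriptions over 6 libraries whose values share a scaling.

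The 2 arms of a hairpin come from 1 precursor, and the share of each arm within a library needs no scaling. Of the 8 hairpins, 6 had at least 10 reads of each arm in every PANC-1 library. MiR-493 and miR-431 gave mostly the 5p arm, with 76.0% ± 1.93 and 85.5% ± 1.56 of the reads in the controls (SD, n = 3). MiR-337, miR-136 and miR-127 gave mostly the 3p arm, with 22.5% ± 2.07, 14.8% ± 1.22 and 13.4% ± 1.90 of reads from the 5p arm, and miR-370 gave nearly only the 3p arm (0.733% ± 0.0462 from the 5p arm). After knockdown the 5p shares were 74.2% for miR-493, 84.2% for miR-431, 23.8% for miR-337, 16.0% for miR-136, 11.1% for miR-127 and 0.697% for miR-370. The groups overlapped in all 6 hairpins, and exact two-sided permutation tests gave p from 0.3 to 0.7 (0.600 to 0.700 after Benjamini-Hochberg adjustment over the 6), where 0.1 is the smallest value possible. This test cannot pass a threshold of 0.05 with 3 libraries a group, so it does not show that arm use stayed the same.

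**Figure D4:**
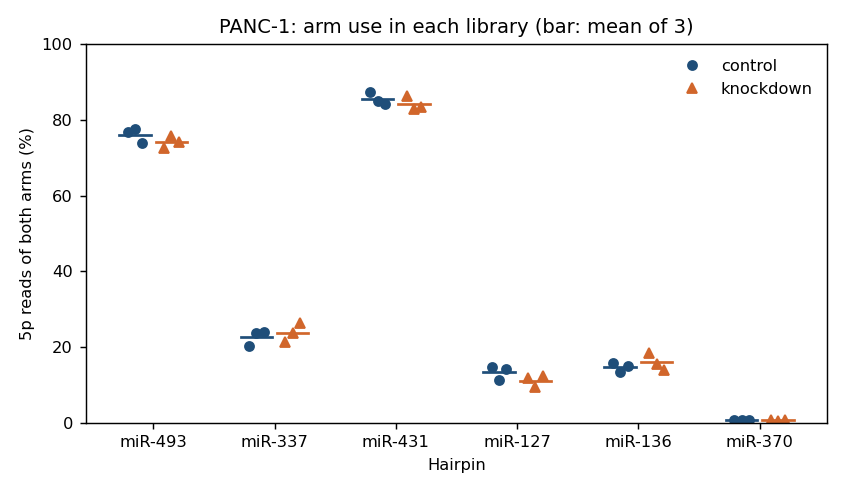
Share of the 5p arm among the reads of both arms, in percent, for 6 upstream hairpins in each PANC-1 library (circles control, triangles knockdown, bar the mean of 3). MiR-493 and miR-431 lie at 72.6% or more, the other 4 at 26.3% or less, and control and knockdown libraries overlap in each hairpin.

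In AsPC-1 most members had too few reads for a test of MYEOV knockdown. Only miR-493-5p passed the filter on low counts, among 498 miRNAs, and its LFC of 0.49 (SE 0.50, edgeR adjusted p = 0.574) was about as large as its error. The value turned on single libraries, with an LFC of 0.12 without AsPC-1 control replicate 1, the library that stood apart, and of 1.06 without control replicate 2 (edgeR adjusted p = 0.891 and 0.255). The other 9 members were at or near the floor of 3 counts in the AsPC-1 libraries, with 0 to 7 reads each. A fit without the filter called none of the members (miR-493-5p edgeR adjusted p = 0.683), and DESeq2 gave miR-493-5p an LFC of 0.49 with no adjusted p. The difference between the lines in the response of miR-493-5p was 0.39 on the log2 scale (edgeR interaction test over all 12 libraries, adjusted p = 0.722 over 650 miRNAs). For the other 9 members the difference between the lines was not tested, so the drop of miR-431-5p and miR-433-3p is not shown to be particular to PANC-1.

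The downstream cluster was tested in the same PANC-1 fit. Of its 72 listed miRNAs 60 were tested, 21 fell (35.0%) and 1 rose, and the median LFC was -0.22 (range -0.79 to 0.46). Over all 551 miRNAs tested, 9.26% fell and the median LFC was 0.03. Its 3 most abundant miRNAs in the PANC-1 controls did not move together. MiR-381-3p, at 30110 CPM, rose (LFC 0.34, edgeR adjusted p = 0.0197), miR-494-3p at 3865 CPM fell (LFC -0.23, edgeR adjusted p = 0.0428), and miR-379-5p at 3134 CPM had an LFC of 0.10 (edgeR adjusted p = 0.385). The difference between the upstream and the downstream miRNAs was not tested. Of 8 tested miRNAs from other imprinted genes, 1 rose and 1 fell, where 22.0% of all miRNAs tested changed in either direction.

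**Figure D5:**
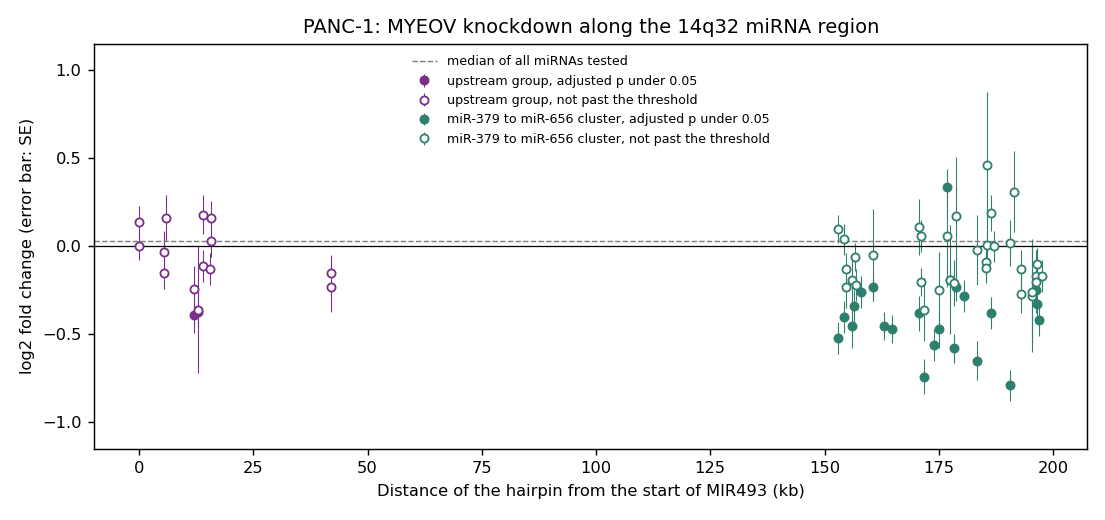
LFC of MYEOV knockdown over control in PANC-1 against the distance of the hairpin from the start of MIR493 in kb, for 16 upstream and 57 downstream miRNAs with a position in the annotation (error bar SE, edgeR). Filled points passed an adjusted p of 0.05, 2 of the upstream and 22 of the downstream miRNAs, and the dashed line is the median of all miRNAs tested. The 2 filled upstream points are those of neighbouring hairpins, miR-431 and miR-433, and the filled downstream points are spread over the cluster.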

How the data were processed

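The authors trimmed the adapter from the small RNA reads, mapped them to hg19 with Bowtie (version not given in the sources used here), kept perfect matches of 18 to 28 nt and deposited raw counts per mature miRNA, in which isoforms with another 5′ end are left out. The level of a miRNA with many such isoforms is therefore understated. A miRNA not listed in a library was given 0. From the counts, each line was fitted separately with edgeR 4.0.16 in R 4.3.3 (filterByExpr with a minimum count of 10, TMM factors of 0.978 to 1.05 for the AsPC-1 and 0.920 to 1.08 for the PANC-1 libraries, quasi-likelihood F test, two-sided, Benjamini-Hochberg adjustment over all miRNAs tested). In PANC-1 every control had a higher TMM factor than every knockdown library, so the scaling went with the treatment. The alternatives were RLE, upper-quartile and total-count scaling, no filter, a filter of 1 CPM in 3 libraries, the Wald test of DESeq2 1.42.0, all 12 libraries in one fit, a replicate block and leaving out each library.

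The members and lists were chosen with earlier results of these data known. By rule, all members, the other arms of the upstream hairpins, miR-665 and miR-770, the 3 most abundant downstream miRNAs and the 5 most alike outside 14q32 were named. The marker miRNAs came from fixed lists and were given as sums, apart from the single liver and neuron markers. Replicate numbers were taken from the labels. The deviations of same-numbered control and knockdown libraries correlated at -0.155, -0.121 and 0.128 in AsPC-1 and at 0.0509, 0.029 and 0.139 in PANC-1, so the numbers were not taken to pair libraries. Folds between lines used total counts, with exact Clopper-Pearson intervals that cover counting error only, as does the floor of 3 counts. Positions came from GRCh37 with GENCODE. The fits were tested on counts simulated with the depths and dispersions of these libraries, which does not test the choice of scaling.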

Additional observations from a re-analysis of the deposited data

How the results depend on the processing

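Leaving out each library in turn, 55 to 129 miRNAs passed the threshold in PANC-1 (121 with all libraries) and 1 to 3 members did (2 with all), with 55 and 68 without knockdown replicates 3 and 2. In AsPC-1 the range was 24 to 102 (57 with all), with 102 without control replicate 1, 24 without knockdown replicate 1 and 31 without knockdown replicate 3. One fit over all 12 libraries called 67 miRNAs in PANC-1. Total-count scaling called 4 members, and 143 of all 551 miRNAs tested. MiR-431-5p and miR-433-3p were called under all 8 alternatives that kept all libraries. Control and knockdown libraries carry the same replicate numbers. With the replicate number as a block the calls went to 29 in AsPC-1 and 153 in PANC-1, where 2 members fell as before. The cause of these shifts was not tested.

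LFCs near 0 changed sign. That of miR-493-5p was 0.04 and that of miR-337-5p 0.01 with upper-quartile factors, and those of miR-493-3p and miR-136-3p were -0.00 and -0.11 with total counts. Without 1 library they ran from -0.05 to 0.03 for miR-493-5p, -0.11 to 0.05 for miR-337-5p and -0.06 to 0.09 for miR-136-3p, and none of these passed the threshold. The group's sum in the PANC-1 controls was 16668 CPM with TMM factors over all 12 libraries (18923 CPM within the line). The change in the miR-370 arm share ran from -0.0810 to 0.0187 percentage points without 1 library (-0.0357 with all). In AsPC-1, 9 members did not pass the filter, with 16 to 27 reads of the whole group in libraries deeper than those of PANC-1, and no edgeR alternative called a member there (DESeq2 gave miR-493-5p no adjusted p).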

Other observations

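The miRNAs whose pattern was most like that of the group's summed level were looked up by Pearson's correlation of log2(CPM + 1). Over all 12 libraries, 13 of the 20 most alike, among 640 candidates of which 69 (10.8%) belong to 14q32, were themselves from 14q32. The 5 most alike from elsewhere were miR-450a-5p, miR-363-3p, miR-10b-5p, miR-146a-5p and miR-34c-5p, with r from 0.999 to 1.000. MiR-363-3p and miR-34c-5p were also at 0 in the AsPC-1 controls, with means of 216 and 120 CPM in the PANC-1 controls, and miR-10b-5p went from 28.9 to 4282 CPM. These correlations rest on the step between the lines, which the libraries of a line share, and they are descriptions over 12 libraries.

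Within the 6 PANC-1 libraries the picture was another. Of the 20 most alike, 4 (20.0%) were from 14q32, which gave 66 of the candidates (12.2%). The 5 most alike from elsewhere were miR-659-5p, miR-1271-5p, miR-7-5p, miR-522-3p and miR-219a-1-3p, with r from 0.884 to 0.950. Of these only miR-7-5p was abundant in the PANC-1 controls, at 17166 CPM, and it was higher in the AsPC-1 controls at 51939 CPM. The sum is mostly miR-493-5p and miR-370-3p, and the values of a library share its depth and scaling.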
